A study of Arabidopsis thaliana with 9 samples.

Results

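Rapid alkalinization factor (RALF) peptides are small cysteine-rich proteins that plant cells secrete, and 10 of their genes in Arabidopsis thaliana are described here. They are RALF4, RALF19, RALFL6, RALFL8, RALFL9, RALFL15, RALFL25, RALFL26, RALFL30 and RALFL18, picked by locus code from the 32833 loci of the count table. RALFL18 was included because its counts were higher in sperm from semi in vivo tubes than in sperm from in vitro tubes, so those counts are given as a description with no test. The other 9 were taken as RALF genes of pollen. RALF peptides bind receptor kinases of the CrRLK1L family together with small membrane-anchored LORELEI-like proteins, and they also bind leucine-rich repeat extensins (LRX) in the cell wall. In the growing pollen tube, RALF4 and RALF19 are the known ligands of the ANX and BUPS receptor kinases and of the pollen LRX proteins, and they keep the tube wall from bursting before the tube reaches the ovule. Other pollen RALFs are known to act on the female side, through FERONIA-type receptors of the stigma and the embryo sac.

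The 9 libraries fall into 3 groups of 3. One group is vegetative nuclei from pollen tubes grown in vitro for 6 h, another is sperm cells from tubes grown semi in vivo for 6 h, and the third is sperm cells from in vitro tubes of 6 h. The vegetative nucleus belongs to the large cell that forms the tube, and the sperm cells are the gametes carried inside it. The protocols name Col-0 plants and 1 transgenic line, and every library is labelled wild type. The line carries MGH3p::MGH3-GFP (the promoter and coding region of a sperm histone H3 gene, fused to green fluorescent protein) and ACT11p::H2B-mRFP (a pollen actin promoter driving a red histone H2B). Semi in vivo tubes were of that line and entered emasculated Col-0 pistils for 2 h, then left the cut pistil during a further 4 h on medium; the line behind the in vitro pollen is not named separately. Sperm cells and nuclei were sorted by fluorescence, and libraries were made by Smart-seq2.

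Library totals ran from 13768069 to 41118337 counts. HTR10, the histone gene behind the green marker, had 7.61 to 21.4 CPM (counts scaled to the same total in each library) in nuclei and 857 to 1540.3 CPM in sperm. ACT11, behind the red marker, had 734 to 1291 CPM in nuclei and 19.8 to 52.2 CPM in sperm. Of the 12 sperm markers, 11 passed the filter on low counts between nuclei and in vitro sperm, and 10 of these were lower in nuclei. All 18 vegetative cell markers were higher in nuclei (edgeR adjusted p under the threshold of 0.05), against 15 without in vitro sperm library 1 and 16 with a replicate block. Among all genes tested, 30.7% were called lower in nuclei and 14.3% higher. The marker lists were chosen with earlier results of these data known. Some libraries stood apart in the genes they detected: at a minimum of 1 CPM, 6299 genes were detected in vegetative nucleus library 1, against 10086 and 8405 in libraries 2 and 3, and 14203 in in vitro sperm library 2, against 7462 to 9867 in the other sperm libraries. Counting genes with any count, semi in vivo sperm library 3 had 11640, against 19219 and 19079 in semi in vivo sperm libraries 1 and 2. Whole sperm cells with their cytoplasm were set against nuclei, so the difference between fractions is also one between cell and nucleus, and in sorted bulk samples fewer cells of a type and less RNA per cell cannot be told apart.

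The 9 pollen RALFs other than RALFL18 together took 6.29%, 3.26% and 2.43% of all counts in nucleus libraries 1, 2 and 3, against 0.00143%, 0.000428% and 0.000198% in sperm from semi in vivo tubes and 0.000663%, 0.00208% and 0.00076% in sperm from in vitro tubes. By counts among all loci, RALFL8 had rank 5, 12 and 15 in nucleus libraries 1, 2 and 3, while RALFL30 had rank 567, 1428 and 1641. RALFL6 (466, 1142 and 1095) and RALFL25 (269, 1084 and 1660) also ranked far below RALFL8. The nucleus libraries did not overlap with either sperm group for any of these 9 genes. Of all genes tested between nuclei and in vitro sperm, 24.9% lay higher in each nucleus library and 39.1% lower.

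**Figure D1:**
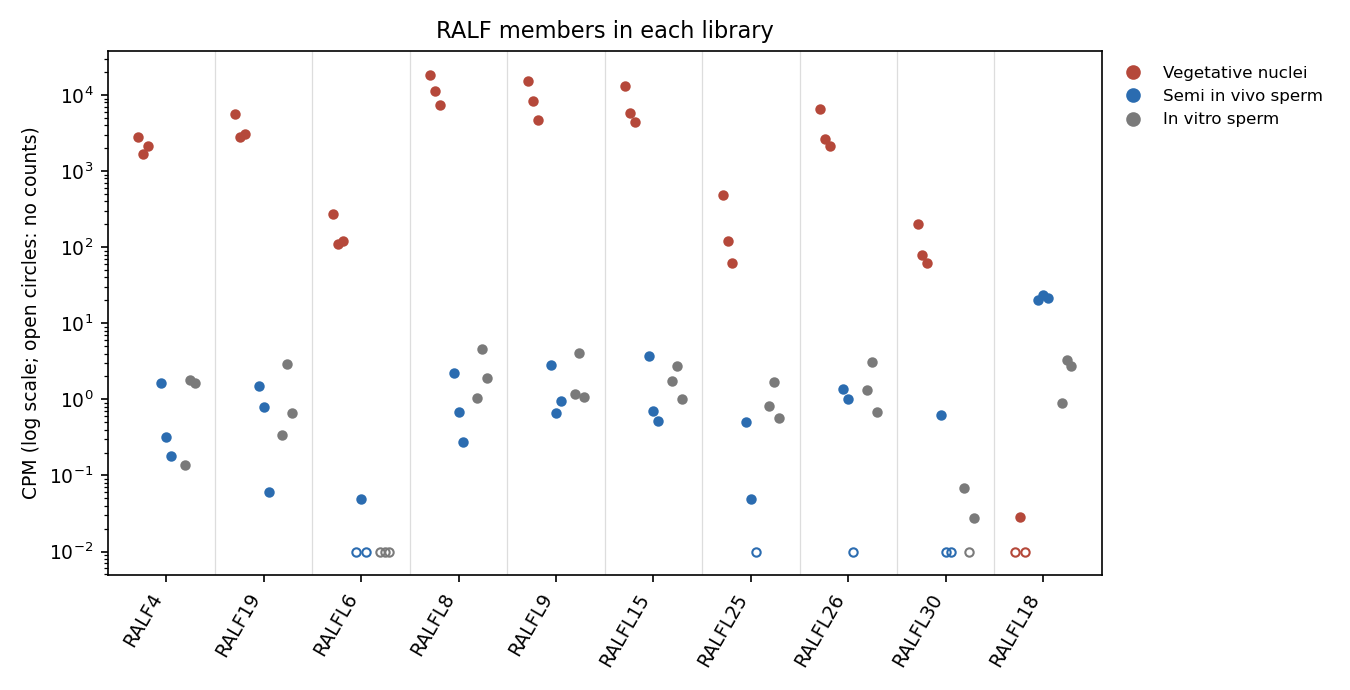
CPM (log axis) of the 10 RALF genes in each library, 1 point per library, with the 3 libraries of a group in order from left to right; open circles at the bottom are libraries with no counts. For 9 genes the vegetative nuclei lie far above both sperm groups, from 61.3 CPM for RALFL25 in nucleus library 3 to 18556 CPM for RALFL8 in nucleus library 1, while RALFL18 shows the opposite order.

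RALF4 (AT1G28270) and RALF19 (AT2G33775), the ligands of tube integrity, were abundant in nuclei and low in sperm, at no more than 2.91 CPM in a sperm library. RALF4 had 2829, 1657 and 2113 CPM in the nucleus libraries, against 1.62, 0.316 and 0.183 CPM in semi in vivo sperm and 0.138, 1.78 and 1.64 CPM in in vitro sperm. RALF19 had 5676, 2812 and 3107 CPM in nuclei, against 1.5, 0.803 and 0.0608 CPM in semi in vivo sperm and 0.346, 2.91 and 0.654 CPM in in vitro sperm. Nucleus library 1 was the highest of its group for both genes, and the sperm groups overlapped with each other. Between nuclei and in vitro sperm, the log2 fold change was 9.80 for RALF4 (SE 1.23, edgeR adjusted p = 0.0017). For RALF19 it was 10.48 (SE 1.30, edgeR adjusted p = 0.00166), and it was 12.03 without in vitro sperm library 2. Per kilobase of annotated exon, RALF19 had 5727, 2837 and 3135 CPM in nucleus libraries 1, 2 and 3, and RALF4 had 2283, 1338 and 1705 CPM, so RALF19 was the higher of the pair in each.

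RALFL8 (AT1G61563), RALFL9 (AT1G61566) and RALFL15 (AT2G22055) had the highest levels per kilobase of exon of the 10 genes in nuclei. RALFL8 had 18556, 11135 and 7461 CPM in nuclei, against 2.21, 0.681 and 0.274 CPM in semi in vivo sperm and 1.04, 4.57 and 1.93 CPM in in vitro sperm. RALFL9 had 15216.5, 8277 and 4768 CPM in nuclei, against 2.79, 0.657 and 0.943 CPM in semi in vivo sperm and 1.17, 4.05 and 1.09 CPM in in vitro sperm. RALFL15 had 13136, 5819 and 4478 CPM in nuclei, against 3.71, 0.705 and 0.517 CPM in semi in vivo sperm and 1.73, 2.74 and 1.01 CPM in in vitro sperm. In each of the 3 genes, nucleus library 1 was highest and library 3 lowest, and the sperm libraries stayed below 5 CPM. The log2 fold changes of nuclei over in vitro sperm were 11.26 for RALFL8 (SE 1.11), 11.14 for RALFL9 (SE 1.18) and 11.16 for RALFL15 (SE 0.99), with edgeR adjusted p of 0.000819, 0.000969 and 0.000649 in that order. Without in vitro sperm library 2 they were 12.17, 12.25 and 11.77. RALFL8 and RALFL9 lie close together on chromosome 1, and in the reference gene table a further gene, AT1G61565, overlaps both. That gene had 74, 113 and 691 counts in the nucleus libraries and 1 count in all sperm libraries. The strand setting of the counting is not given in the sources used here and the preparation does not keep the strand, so reads in the shared stretches cannot be assigned with certainty.

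RALFL25 (AT3G25165), RALFL26 (AT3G25170) and RALFL30 (AT4G13075) belong to the pollen RALFs known from work on the stigma, where they compete with peptides of the pistil for its receptors. RALFL25 and RALFL26 are adjacent protein-coding genes on chromosome 3, yet their levels differed. RALFL26 had 6551, 2607 and 2165 CPM in nuclei, against 1.37, 1.02 and 0 CPM in semi in vivo sperm and 1.31, 3.11 and 0.681 CPM in in vitro sperm. RALFL25 had 485, 119.6 and 61.3 CPM in nuclei, against 0.5, 0.0486 and 0 CPM in semi in vivo sperm and 0.829, 1.68 and 0.572 CPM in in vitro sperm. Per kilobase of exon, RALFL26 had 7573, 3014 and 2503 CPM in nucleus libraries 1, 2 and 3, and RALFL25 had 810.1, 199.6 and 102.4 CPM. The log2 fold change of nuclei over in vitro sperm was 10.18 for RALFL26 (SE 1.15, edgeR adjusted p = 0.0012; 11.20 without in vitro sperm library 2). For RALFL25 it was 6.88 (SE 1.24, edgeR adjusted p = 0.00599), and it was 6.22 without nucleus library 1 and 7.64 without in vitro sperm library 2. In RALFL25 the nucleus libraries spread most, with library 1 at 7.91 times library 3. An annotated long noncoding RNA, AT3G04875, overlaps RALFL26 and had 0, 33 and 31 counts in nuclei.

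RALFL30 had 204, 80.2 and 62.4 CPM in nuclei, against 0.625, 0 and 0 CPM in semi in vivo sperm and 0.0691, 0 and 0.0273 CPM in in vitro sperm. These are 7330 counts over the nucleus libraries against 15 over semi in vivo sperm and 2 over in vitro sperm. From the summed counts the ratio of nuclei to in vitro sperm was 4407 (95% exact interval 1219 to 36394). That of nuclei to semi in vivo sperm was 628 (95% exact interval 380.5 to 1123). Such intervals and limits hold for counting error alone, because the reads carry no molecular identifiers and PCR copies were counted too. The fitted log2 fold change over in vitro sperm was 11.19 (SE 1.35, edgeR adjusted p = 0.00149), and it was 11.86 without in vitro sperm library 1 and 10.55 without in vitro sperm library 2.

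RALFL6 (AT1G60625) is one of the pollen peptides known to keep further tubes from entering an ovule. It had 272, 111.7 and 120.3 CPM in nuclei, against 0, 0.0486 and 0 CPM in semi in vivo sperm and no counts in any in vitro sperm library. With 3 counts over the group as the limit of a count of 0, it was at least 4391-fold higher in nuclei than in in vitro sperm (edgeR adjusted p = 0.00202). Over semi in vivo sperm, with 2 counts in all, the ratio was 7040.4 (95% exact interval 1949 to 58142).

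All 9 genes were higher in nuclei past the edgeR threshold, where 44.9% of the 14061 genes tested were called and 14.3% were called higher. These genes were chosen as pollen RALFs with results of these data known, so nothing about the family is read from the count. Their median log2 fold change was 11.14, against -1.70 for all genes tested, and the median of all genes moved to -1.57 with RLE factors, -1.27 with upper-quartile factors and -0.55 with TMM factors from unfiltered genes. It was -2.79 with a replicate block and -3.35 by DESeq2 (over 29361 genes, also those without an adjusted p). With 1 library left out it ran from -3.76 without nucleus library 2 to -1.13 without in vitro sperm library 2. In all, 2006 genes were higher and 4314 lower in nuclei, or 2480 and 3399 with TMM factors from unfiltered genes. Relative to the median of -1.70, RALF4 lay 11.50 and RALFL8 12.96 higher on the log2 scale. The 9 calls stood under each of the 15 alternatives that were run, among them DESeq2 and a fit against the semi in vivo sperm group.

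**Figure D2:**
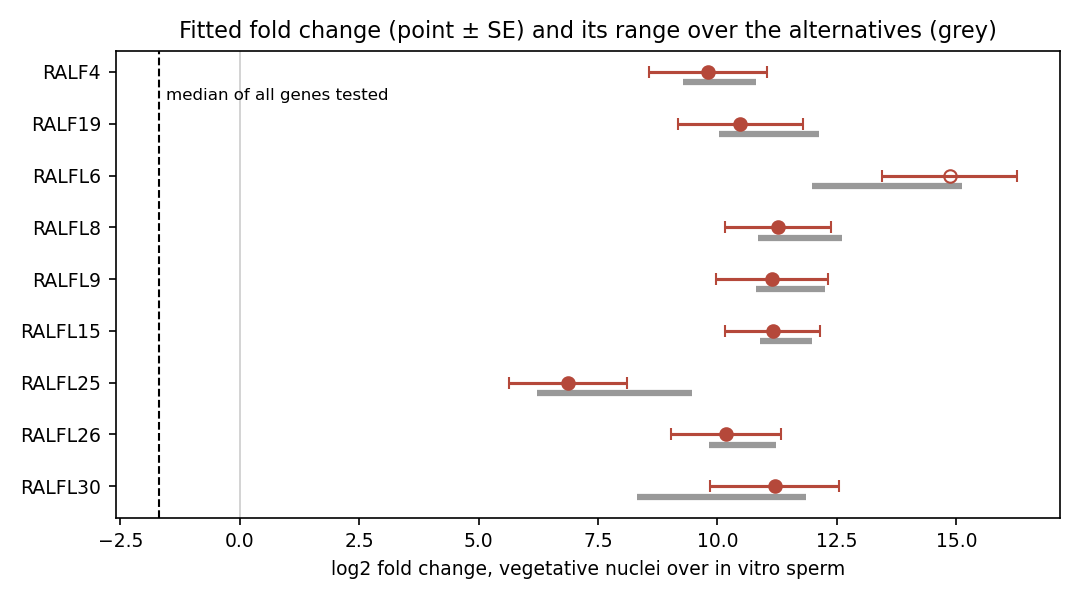
Log2 fold change of vegetative nuclei over in vitro sperm for 9 RALF genes: point and bar give the edgeR estimate ± SE, the grey line under each its range over the alternatives, and the dashed line the median of all genes tested (-1.70). The open circle for RALFL6 is a fitted value against a group with no counts and no bound. RALFL25 has the smallest value, 6.88, and the other 8 lie between 9.80 and 14.86.

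Levels were compared between genes as CPM per kilobase of annotated exon. In nuclei RALFL8 came first at 23455 ± 10705, followed by RALFL9 at 17097 ± 9650 and RALFL15 at 12016.5 ± 7169 CPM per kilobase (mean ± SD, n = 3). After these came RALFL26 at 4364 ± 2791, RALF19 at 3899.98 ± 1589.6 and RALF4 at 1775 ± 477. The lowest were RALFL6 at 683 ± 366, RALFL25 at 371 ± 384 and RALFL30 at 182 ± 122 CPM per kilobase. The libraries of neighbours in this order overlapped, except that RALF19 lay above RALF4, and RALF4 above RALFL6, with no overlap. Within a library the order was the same in all 3, except that RALFL26 and RALF19 changed places in nucleus library 3. Exon lengths come from the reference annotation, which may differ from the gene set used for counting, and the model of RALFL6 (246 bp) holds coding sequence only.

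The nucleus libraries differed among themselves in a way that followed transcript length. For all 9 genes nucleus library 1 was the highest, by 0.59 (RALF4) to 2.42 (RALFL25) on the log2 scale over the mean of libraries 2 and 3. Among 4076 genes with a mean of at least 10 CPM in nuclei, the median of the same log2 ratio was 0.92 for the 187 genes with under 700 bp of exon, 0.08 for the 1123 genes of 700 to 1500 bp and -0.83 for the 2766 longer genes. Not every gene followed its class: 75.4% of the genes under 700 bp, 53.8% of those of 700 to 1500 bp and 18.9% of the longer ones were higher in library 1. The RALF genes are short, with 246 to 1239 bp of exon. The part of transcript length or RNA quality in the RALF levels of library 1 was not tested. Summed over the 18 vegetative cell markers, library 1 was not high, at 46817 CPM against 52410 and 55131 CPM in libraries 2 and 3. Single markers went either way, so the sum does not hold for each of them. AHA8, with 3318 bp of exon, had 6600, 15062 and 15895 CPM in nucleus libraries 1, 2 and 3. AGP11, with 753 bp, had 11472, 7690 and 5769 CPM.

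In sperm libraries the 9 genes were present at traces. Summed, they reached 0.0359%, 0.0107% and 0.00495% of their mean level in nuclei in semi in vivo sperm libraries 1, 2 and 3, and 0.0166%, 0.0521% and 0.019% in in vitro sperm libraries 1, 2 and 3. The percent was not the same for each gene. RALFL25 stood at 0.225%, 0.0219% and 0% of its own nucleus mean in the semi in vivo libraries. In the in vitro libraries it stood at 0.373%, 0.756% and 0.258%. RALFL30 stood at 0.541% in semi in vivo library 1, from 15 counts. The 18 vegetative cell markers, summed the same way, stood at 0.0804% to 0.178% of their nucleus level in semi in vivo sperm and 0.118% to 0.173% in in vitro sperm. The marker sum in sperm was carried mostly by ACT11, ACA9 and CNGC18. Without these 3, a choice made after seeing the data, the other 15 markers stood at 0.0321%, 0.015% and 0.0127% in semi in vivo libraries 1, 2 and 3 and at 0.0201%, 0.0635% and 0.0328% in in vitro libraries 1, 2 and 3. The RALF share was then higher than the marker share in semi in vivo library 1 and lower in the other 5 sperm libraries. Every vegetative marker had counts in at least 1 library of each sperm group, and at most 2 of the 18 were at 0 in a sperm library. The part of RNA from the vegetative cell in these traces was not tested.

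**Figure D3:**
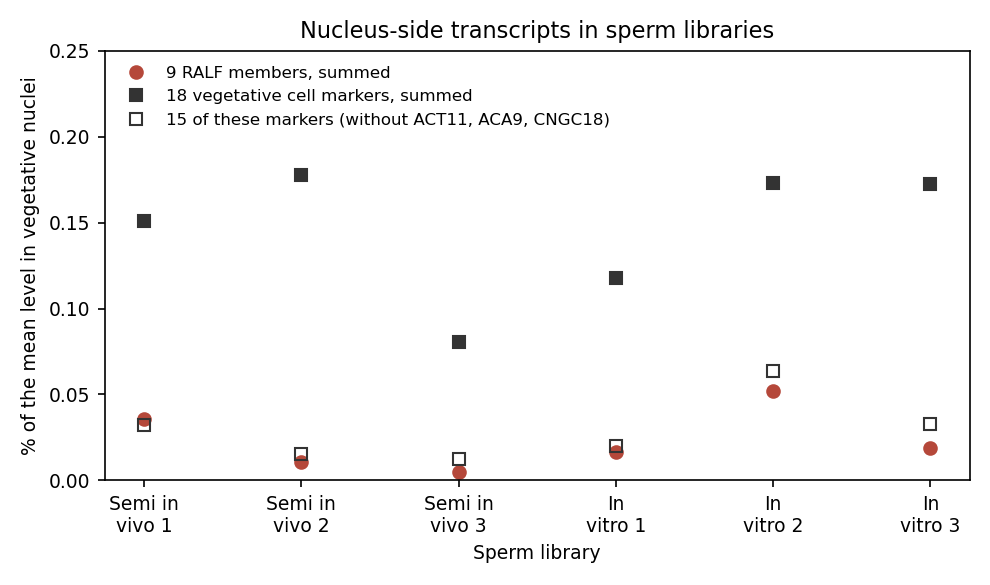
Summed CPM of the 9 RALF genes (circles) and of vegetative cell markers (filled squares, all 18; open squares, the 15 without ACT11, ACA9 and CNGC18) in each sperm library, as a percent of the mean of the same sum in the vegetative nucleus libraries. The circles lie between 0.00495% and 0.0521%, below the filled squares in each library and near the open squares, which they exceed in semi in vivo library 1.

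Between the sperm groups none of these genes passed the test. RALFL6 and RALFL30 did not pass the filter on low counts. Of the 7 tested, 0 passed by edgeR, 0 by DESeq2 and 0 at an unadjusted p under 0.05 in either, where 0.63% of 14131 genes were called (0.538% higher after semi in vivo growth and 0.092% lower). The log2 fold changes of semi in vivo over in vitro sperm ran from -2.29 for RALFL25 (SE 2.05) to 0.044 for RALFL15 (SE 1.00), and the standard errors of 0.96 to 2.05 leave room for changes of several-fold. RALFL25 was the 1 gene of the 7 whose sperm groups did not overlap, with each semi in vivo library lower, as for 12.2% of all genes tested. RALFL30 had 15 counts in semi in vivo sperm library 1 and none in libraries 2 and 3, against 2 counts in in vitro sperm.

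RALFL18 (AT2G33130) showed the opposite distribution. It had 0, 0.0284 and 0 CPM in the nucleus libraries, 20.2, 23.8 and 21.4 CPM in sperm from semi in vivo tubes and 0.898, 3.28 and 2.75 CPM in sperm from in vitro tubes. No group overlapped with another (4.15% of all genes tested lay higher in each semi in vivo sperm library), and the semi in vivo libraries lay close together while the in vitro libraries spread more widely. The single count in nuclei stood against 2163 counts in semi in vivo sperm and 247 in in vitro sperm. As CPM, nuclei had 0.000594 of the semi in vivo sperm level (95% exact interval 1.5e-05 to 0.00331) and 0.00487 of the in vitro sperm level (95% exact interval 0.000123 to 0.0274). RALFL18 was picked by these sperm counts, so the intervals describe counting error alone and are no test. Semi in vivo sperm averaged 21.8 ± 1.83 CPM and in vitro sperm 2.31 ± 1.25 CPM (SD, n = 3), with a fitted log2 fold change of 3.40 (SE 0.39).

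The same fold change ran from 3.09 without in vitro sperm library 1 to 3.65 without in vitro sperm library 2, over 13 alternatives that were run. These are fold changes of 8.52 to 12.6. RALFL18 was picked for its rise between these same libraries, and such a choice favours a large value. Its SE and this range therefore describe the libraries and lend the rise no support. In rank among all loci, RALFL18 stood 2384th, 2253rd and 2304th in the semi in vivo libraries, and 10188th, 6388th and 5636th in the in vitro libraries. Per kilobase of exon RALFL18 was the highest of the 10 genes in each semi in vivo sperm library, at 29.8, 35.1 and 31.6 CPM per kilobase. The next gene there had 5.70, 1.29 and 1.71 CPM per kilobase. In in vitro sperm RALFL18 had place 6, 3 and 1 of the 10 in libraries 1, 2 and 3, so that its level of 3.42 ± 1.85 CPM per kilobase (SD, n = 3) lay within the spread of RALFL8, at 4.76 ± 3.47, and RALFL9, at 3.82 ± 3.05.

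Marker sums were set beside the RALFL18 values. The 16 pistil and sporophyte markers summed to 3.54, 5.23 and 4.32 CPM in semi in vivo sperm libraries 1, 2 and 3, against 10.4, 26.0 and 2.04 CPM in in vitro sperm libraries 1, 2 and 3. The semi in vivo values lie between in vitro library 3 and in vitro library 1. Semi in vivo library 3 had counts for fewer genes in all, 11640 against 19219 and 19079 in semi in vivo libraries 1 and 2. In library 3, which has 702 counts of RALFL18, 12 of the 16 pistil markers were at 0. NTT, HEC1, HEC2, HEC3, SPT, CRC, STY1, SHP1 and SHP2 were all among them, and BEL1 held 137 of the counts of that list. STY1 had 15 and 16 counts in semi in vivo libraries 1 and 2 and none in in vitro sperm. CRC had 8, 94 and 0 counts in the semi in vivo libraries, against 5, 79 and 2 counts in the in vitro libraries. The part of pistil RNA in the RALFL18 values was not tested. The 18 vegetative cell markers summed to 77.6, 91.5 and 41.4 CPM in semi in vivo sperm, against 60.7, 89.0 and 88.6 CPM in in vitro sperm. The 12 sperm markers summed to 30459, 30588 and 29564 CPM in semi in vivo sperm, against 25680, 22414 and 28184 CPM in in vitro sperm. Single markers went either way. DAZ3 had 17704, 14977 and 14178 CPM in semi in vivo sperm, against 9788, 9272 and 12106 CPM in in vitro sperm. HTR10 had 985, 857 and 1006 CPM, against 1540, 1177 and 1390 CPM. Of the 11 tested, 2 lay higher in each semi in vivo library and 2 lower, as for 4.15% and 12.2% of all genes tested.

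**Figure D4:**
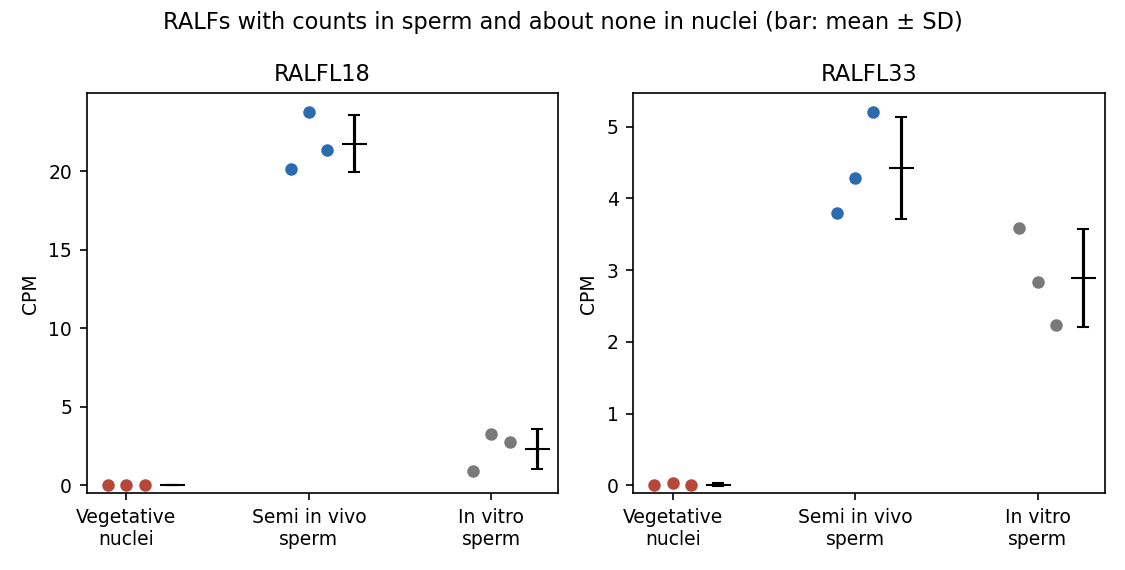
CPM of RALFL18 (left) and RALFL33 (right, with its own axis) in each library, as points, with the group mean ± SD (n = 3) beside them. RALFL18 lies at 20.2 to 23.8 CPM in semi in vivo sperm and at 0.898 to 3.28 CPM in in vitro sperm, and each gene has a single count in all nucleus libraries.

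The table holds 27 other loci of the RALF family. In the comparison of nuclei with in vitro sperm 10 of them passed the filter, of which 5 were higher in nuclei, 1 was lower and 4 did not pass the edgeR threshold, where 14.3% of all genes were called higher and 30.7% lower. Their log2 fold changes split into 5 above and 5 below 0, so the median turned with the genes it was taken over. It was 3.45 here, -2.63 by DESeq2 and -2.70 without a filter, against -1.70, -3.35 and -2.70 for all genes of the same fit. The DESeq2 medians cover every gene with a fold change, also those without an adjusted p. The family median was also below 0 with all 9 libraries in 1 fit (-0.86) and without nucleus library 1 (-0.16), 2 (-0.90) or 3 (-1.16) or in vitro sperm library 1 (-1.40) or 3 (-1.45). The 5 higher ones were RALFL7, RALFL11, RALFL12, RALFL13 and RALFL16. RALFL10 to RALFL13 stand side by side on chromosome 2. RALFL11, RALFL12 and RALFL13, known with RALFL25, RALFL26 and RALFL30 as pollen peptides of the stigma, had 2959, 1009 and 1389 CPM, 2014, 687 and 586 CPM, and 3851, 1307 and 1467 CPM in nucleus libraries 1, 2 and 3, and at most 1.04 CPM in a sperm library. Their neighbour RALFL10 had no counts in nuclei or semi in vivo sperm and 3 counts in in vitro sperm.

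RALFL7 and RALFL16, like RALFL6 known for the block to additional tubes, had 565, 342 and 418 CPM and 47.4, 78.4 and 113 CPM in nucleus libraries 1, 2 and 3. Sperm libraries had at most 2.02 CPM of RALFL7 and 0.395 CPM of RALFL16. Log2 fold changes over in vitro sperm were 7.79 for RALFL7 (SE 1.68, edgeR adjusted p = 0.0112) and 7.93 for RALFL16 (SE 1.76, edgeR adjusted p = 0.0124). RALFL16, with 288 bp of exon, was highest in nucleus library 3, unlike the RALF genes above.

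RALFL33 (AT4G15800), known as a peptide of the stigma, was, like RALFL18, nearly without counts in nuclei. It had 0, 0.0284 and 0 CPM in nuclei, 3.79, 4.28 and 5.20 CPM in semi in vivo sperm and 3.59, 2.84 and 2.23 CPM in in vitro sperm. It was called lower in nuclei than in in vitro sperm (edgeR adjusted p = 0.00897), a call lost without the filter on low counts, and in vitro sperm had 207 times the nucleus level from 249 counts against 1 (95% exact interval 36.8 to 8212). The semi in vivo libraries all lay above the in vitro libraries, as for 4.15% of genes tested, but the log2 fold change of 0.82 (SE 0.50) did not pass (edgeR adjusted p = 0.837). AT2G32885, annotated only as of the RALF family, had 0.208, 0.122 and 0.426 CPM in semi in vivo sperm and 0.691, 4.15 and 0.273 CPM in in vitro sperm. Of the 5 other family loci tested between sperm groups, 0 passed by edgeR and 0 at an unadjusted p under 0.05. By DESeq2, 7 were tested, 0 passed and 3 had an unadjusted p under 0.05.

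Most partners of RALF signalling were, like the 9 pollen RALFs, higher in nuclei than in sperm. Of 23 listed genes, 18 passed the filter between nuclei and in vitro sperm, 14 were higher in nuclei, 1 was lower and 3 (RBOHJ, LLG1 and S1P) did not pass the edgeR threshold, where 14.3% of all genes were called higher and 30.7% lower. By DESeq2, 15 were higher and 4 lower, and without in vitro sperm library 1, 12 were higher and 0 lower (16 at an unadjusted p under 0.05). The median log2 fold change of the 18 was 6.29, against -1.70 for all genes tested. MLO9, MLO15, FER, HERK1 and LRE, nearly or wholly without counts in nuclei, did not pass the filter and are not in it. The partner median was 4.65 by DESeq2 and 5.59 without a filter, against -3.35 and -2.70 for all genes. Over the settings it ran from 4.56 without nucleus library 3 to 7.24 with TMM factors from unfiltered genes. The receptor kinase gene ANX2 had 546, 1114 and 1202 CPM in nuclei, against 0, 0.197 and 0.245 CPM in in vitro sperm (log2 fold change 11.41, SE 1.17, edgeR adjusted p = 0.000893). Its partner receptor gene BUPS2 had 162, 153 and 216 CPM in nuclei, against 1.38, 0.74 and 1.20 CPM in in vitro sperm (log2 fold change 6.41, SE 0.63, edgeR adjusted p = 0.000718). ANX1 kept a level in sperm, with 285, 497 and 626 CPM in nuclei against 7.12, 3.70 and 13.5 CPM in in vitro sperm (log2 fold change 4.87, SE 0.68).

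LLG3, which encodes a LORELEI-like co-receptor of pollen, had 112, 147 and 122 CPM in nuclei, against 0.138, 0.395 and 0.0818 CPM in in vitro sperm. The wall protein genes LRX9 and LRX10 averaged 1168 ± 140.1 and 1479 ± 166 CPM in nuclei, against 0.549 ± 0.400 and 0.788 ± 0.382 CPM in in vitro sperm (SD, n = 3). LRX8 had 1261, 1345 and 1439 CPM in nuclei and remained at 26.7, 27.9 and 41.2 CPM in in vitro sperm. MRI, a cytoplasmic kinase gene that acts after the ANX receptors, had 147, 263 and 316 CPM in nuclei, against 7.95, 3.65 and 3.92 CPM in in vitro sperm. Nucleus library 1 was not the highest for any of these 8 genes, whose annotated exons are longer than those of the RALF genes, from 1749 bp for MRI to 3807 bp for ANX1. LLG2, the other co-receptor gene of pollen, named after its values were seen, has 691 bp of exon and had 1750.1, 796 and 696 CPM in nucleus libraries 1, 2 and 3. The part of exon length in these differences between nucleus libraries was not tested. LRX11, also named after its values were seen, had the highest level in sperm of the listed partners. It had 963, 1246 and 1346 CPM in nuclei, 160, 121 and 132 CPM in semi in vivo sperm and 163, 163 and 194 CPM in in vitro sperm. Its log2 fold change over in vitro sperm was 1.80 (SE 0.39, edgeR adjusted p = 0.0107).

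The 1 partner gene lower in nuclei, named after its values were seen, was MLO1, of a family of calcium channels that RALF peptides are known to activate. It had 0, 1.51 and 0.0366 CPM in nuclei, 12.8, 17.2 and 13.4 CPM in semi in vivo sperm and 29.6, 14.1 and 17.4 CPM in in vitro sperm (nuclei over in vitro sperm: log2 fold change -6.25, SE 1.74, edgeR adjusted p = 0.0236). This call was lost without nucleus library 1, without in vitro sperm library 1, without in vitro sperm library 2 and nucleus library 1 together, and with TMM factors from unfiltered genes. FER, the receptor kinase gene of the female side, had a single count in all nucleus libraries and at most 1.29 CPM in a sperm library, and HERK1 and LRE had no counts in nuclei. Of the 14 partner genes tested between sperm groups, 0 passed by edgeR and 0 at an unadjusted p under 0.05, with a median log2 fold change of -0.23 against -0.17 for all genes. By DESeq2, 17 were tested, 0 passed and 2 had an unadjusted p under 0.05.

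**Figure D5:**
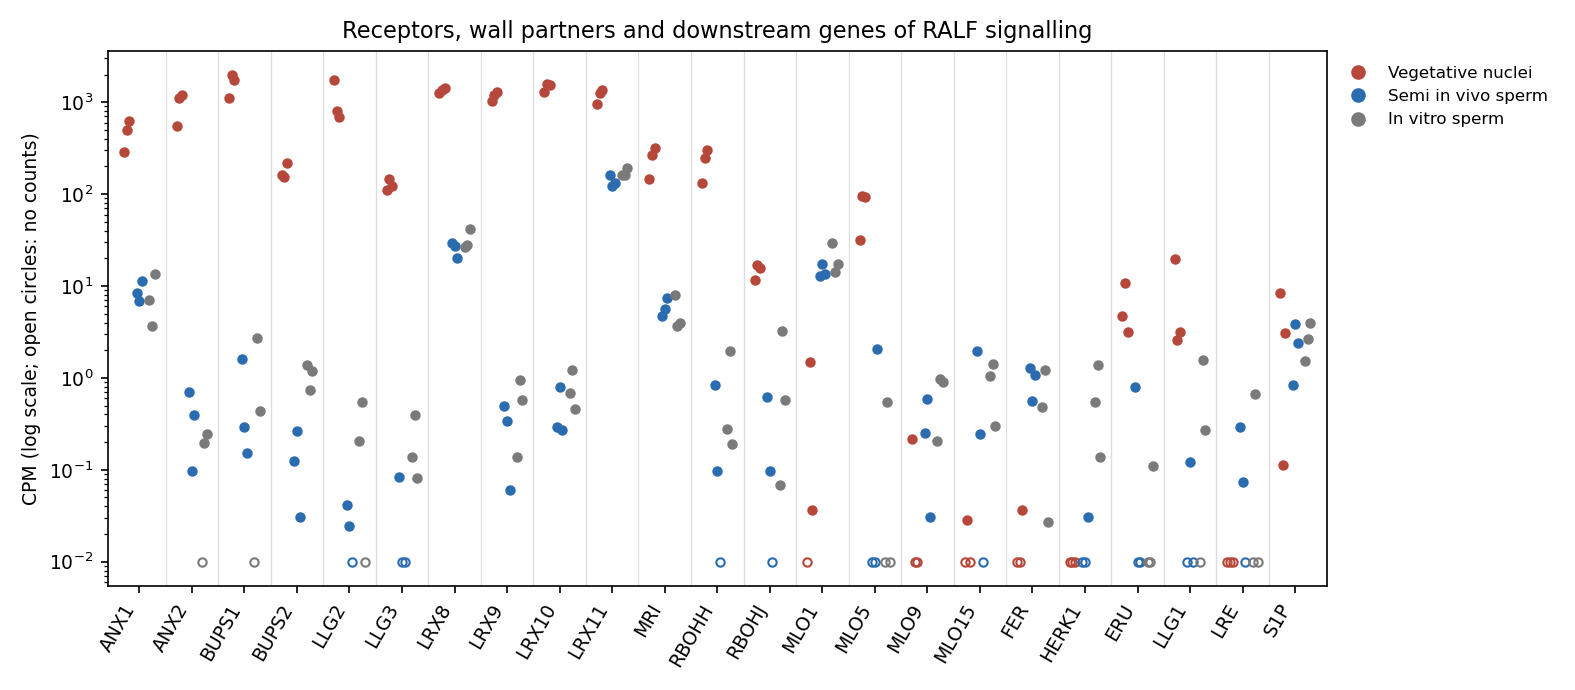
CPM (log axis) of 23 genes of RALF signalling in each library, 1 point per library, with open circles at the bottom for libraries with no counts: receptors (ANX, BUPS), co-receptors (LLG), wall proteins (LRX), downstream genes (MRI, RBOH, MLO) and genes known from other tissues or from peptide processing (FER to S1P). Most points of vegetative nuclei lie above both sperm groups, while MLO1 lies lower in nuclei.

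Likeness to RALFL18 was measured as Pearson's r of log2 CPM over the 9 libraries, among 6274 genes with a mean of at least 10 CPM in a group. The genes most like it were AT5G64550 (r = 0.98), AT2G15042, of the leucine-rich repeat family (r = 0.975), MAGL6 (AT2G39400), of the alpha/beta-hydrolases (r = 0.967), the lipoxygenase gene LOX5 (AT3G22400, r = 0.966) and the leucine-rich repeat gene DRT100 (AT3G12610, r = 0.96). AT2G15042 had no counts in nuclei, 17.7, 15.03 and 5.38 CPM in semi in vivo sperm and 0.415, 3.68 and 5.04 CPM in in vitro sperm. The most like RALF4 were AT2G22180, of the hydroxyproline-rich glycoproteins (r = 0.999), EXL6 (AT3G02970, r = 0.998), the expansin gene EXPA4 (AT2G39700, r = 0.998), AT3G19690 (r = 0.997) and AT1G78460 (r = 0.997). The points share libraries in 3 groups, so these r values follow the differences between groups, and they are descriptions.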

How the data were processed

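The 10 RALF genes and the gene lists used beside them were chosen with earlier results of these data known. The authors deposited 1 table of unnormalized read counts, with a column for each of 9 libraries. The submitters' processing notes name Trim Galore, HISAT2, featureCounts and the build TAIR10. Tool versions, strand setting, gene set and the handling of multi-mapping reads: not given in the sources used here, so values of close paralogs are uncertain. Symbols came from the table and from the RefSeq gene table of TAIR10.1, which holds 32548 of the 32833 loci. Its coordinates are not printed because the builds differ. CPM are counts divided by the library total and scaled to the same sum in each library, with no further normalization.

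Each pair of groups was fitted alone (6 libraries) with edgeR 4.0.16 and R 4.3.3, using filterByExpr (minimum count 10), TMM factors, a robust quasi-likelihood fit, the F test and Benjamini-Hochberg adjustment over all genes tested, threshold 0.05. Standard errors were back-calculated from the F statistic. Alternatives were RLE and upper-quartile factors, DESeq2 1.42.0, no filter, all 9 libraries in 1 fit, a replicate block, each library left out, and, for nuclei, semi in vivo sperm as the sperm group and TMM factors from unfiltered genes. Chosen after seeing the data was a fit without in vitro sperm library 2 and nucleus library 1. Between sperm groups it was a fit without in vitro sperm library 2 and semi in vivo sperm library 3. Exact intervals are binomial, at 95%, on counts summed over a group. The partner list was fixed by locus code, and ANJ was left out because its code carries no such symbol in the tables. Named from it were the 8 genes with the smallest adjusted p between nuclei and in vitro sperm. Other family loci were named at a mean of at least 1 CPM in a group, and the 5 genes most like RALFL18 and RALF4 by r. Nothing in the labels says that replicates came from separate plants or assays, so p-values measure the spread between these libraries, which may be technical. No pair of replicates was close to a duplicate (chi-square of 25.3 to 369 per gene).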

Additional observations from a re-analysis of the deposited data

How the results depend on the processing

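The log2 fold changes of the 9 RALF genes, nuclei over in vitro sperm, kept their direction and their call under each of 15 alternatives, with the widest range for RALFL30, at 8.31 to 11.86. The number of genes called there was 6320, against 10578 by DESeq2 and 3552 to 5854 with 1 library left out, lowest without in vitro sperm library 1. Between sperm groups it was 89, against 521 by DESeq2, 150 without a filter, 223 with the replicate block, 0 in the edgeR fit of all 9 libraries (996 at an unadjusted p under 0.05), 51 to 123 with 1 library left out, lowest without in vitro sperm library 1, and 0 without in vitro sperm library 2 and semi in vivo sperm library 3 (1019 at an unadjusted p under 0.05). Once the group means were taken out, same-numbered libraries correlated at 0.0101 to 0.0669 between nuclei and in vitro sperm. Between sperm groups they correlated at -0.00655 to 0.161. These values concern departures from the group mean and not the expression levels themselves. Not every library correlated best with its own number, so the block joins libraries that share only a number. With it 5790 genes were called between nuclei and in vitro sperm. Apart from the smaller number of samples where libraries were left out, the cause of these shifts was not tested.

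Low counts limit the 9 genes in sperm, and the sign of small differences between sperm groups, none past the threshold, changed with the setting. RALFL15 (0.044) was -0.033 with RLE factors, -0.066 with upper-quartile factors, -0.030 by DESeq2, -0.15 with all 9 libraries and -0.44 with the replicate block. With 1 library left out, RALFL15 ran from -1.30 (without semi in vivo sperm library 1) to 0.46 and was -0.18 without in vitro sperm library 3, RALFL9 (-0.30) ran from -1.09 to 0.51 and was 0.064 without semi in vivo sperm library 2, and RALF19 (-0.51) ran from -1.32 to 0.78 and was 0.037 without semi in vivo sperm library 3. The highest values of RALFL9 and RALF19 came without in vitro sperm library 2. The ranges were -1.99 to -0.12 for RALF4, -2.12 to -0.36 for RALFL8, -4.93 (without semi in vivo sperm library 1) to -1.71 for RALFL25 (-2.29) and -1.48 to -0.18 for RALFL26. Without both in vitro sperm library 2 and semi in vivo sperm library 3, a choice made after seeing the data, RALF4 was 0.20, RALF19 1.28, RALFL8 0.050, RALFL9 0.71, RALFL15 0.80 and RALFL26 0.38.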
